A study of Mus musculus with 11 samples.

Results

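Natural killer (NK) cells that carry the receptor Ly49H were compared between the 2 days named in the sample titles, D0 and D2, in wild-type cells. The members are the 5 wild-type (WT) libraries of a series of 11, chosen by title: 2 from D0 (replicates 2 and 3) and 3 from D2 (replicates 1, 2 and 3). The cells were sorted from spleens of C57BL/6 mixed bone marrow chimeras, hosts whose blood cells were rebuilt from WT donor marrow marked CD45.1 and LDHA-deficient marrow marked CD45.2. Per the labels, the treatment was in vivo infection with mouse cytomegalovirus (MCMV), the sort kept TCRb- CD3e- NK1.1+ DX5+ Ly49H+ cells, and each sample is 1 mouse. The other 6 libraries are LDHA-deficient (KO) cells from the same kind of host, 3 from each title day, and they serve here only to test whether a change differs between genotypes. A further label gives 2 days after infection to all 11 libraries, D0 ones too, so D0 and D2 are used as title terms and whether the D0 mice had been infected is not settled here. WT was likewise taken from the titles, because the label for genotype lists WT and KO together for these samples. The labels used here do not give the mice's age, the allele or the Cre behind the LDHA deficiency, or whether a WT and a KO library with the same number came from 1 host.

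Ly49H is an activating receptor, encoded by Klra8, that binds an MCMV protein on infected cells and signals through the adaptors DAP12 and DAP10. NK cells also respond in the first days of infection to type I interferon, IL-12 and IL-18 made by other cells, and Ly49H+ cells then divide many times. Resting NK cells are small, leave tissues along sphingosine 1-phosphate gradients, and hold ready-made messenger RNA for cytotoxic granule proteins. Lymphocytes that enter the cell cycle are known to induce Myc, to build ribosomes and nucleotides, and to raise glycolysis, the pathway that ends in lactate through lactate dehydrogenase.

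Total counts in the WT libraries ran from 23361983 to 27992092, and levels are given in CPM, counts per 1e+06 counts of the library. A gene with 3 counts or fewer is treated as not detected, which is 0.107 to 0.128 CPM. Across genes, log2 CPM correlated at 0.986 between the D0 libraries and at 0.980 to 0.988 among the D2 libraries, against 0.902 to 0.909 between a D0 and a D2 library, as a description over genes that are not independent. On the first principal component, which held 81.5% of the variance, the D0 libraries lay at -91.3 and -92.6 and the D2 libraries at 62.2, 62.3 and 59.4. D2 replicate 1 stood apart from the other D2 libraries on the second component, with 8.78% of the variance (43.2 against -30.0 and -13.4). Of 12 NK cell marker genes all were measured, at a sum of 19450 to 20010 CPM at D0 and 22800 to 24970 CPM at D2, with 3 called higher (Gzma, Prf1 and Il2rb) and 5 lower, among them the genes of all 3 antigens the sort selected for (Klrb1c, Itga2 and Klra8). Cd3e, excluded by the gate, stayed between 0.290 and 0.581 CPM. Markers of most other spleen cells were low. Summed over a list they reached 39.6 and 37.0 CPM at D0 and 33.1 to 58.4 CPM at D2 for B cells, led by Cd22, and 16.6 to 23.4 against 15.3 to 31.8 CPM for T cells. Monocyte and macrophage markers moved with the day, from 90.9 and 77.6 CPM at D0 to 29.9 to 42.8 CPM at D2, with 5 of 13 lower and 1 higher. Lyz2 fell from 41.7 and 20.6 CPM to between 4.38 and 5.61 CPM. Neutrophil markers summed to 27.6 and 22.3 CPM at D0 and 10.6 to 14.4 CPM at D2, and red cell and platelet markers to 837.5 and 204.5 CPM against 42.1 to 323 CPM. Dendritic cell markers summed to 817 and 828.1 CPM at D0 and 791.5 to 886.5 CPM at D2, with 2 of 10 tested higher and 4 lower. The sum hid opposite changes. Itgax (CD11c), which NK cells also express, led at D0 with 668 and 698 CPM and fell to 216, 205 and 223 CPM. Bst2, also on the interferon list below, rose from 23.2 and 26.2 CPM to 531, 473 and 558 CPM and led at D2. Markers of ILC1, innate lymphoid cells related to NK cells, summed to 64.4 and 66.0 CPM at D0 and 138.7 to 155.9 CPM at D2, most of it Il21r at D2, with 2 of 8 higher and 3 lower. Plasma cell markers summed to 48.9 and 10.3 CPM against 25.9 to 38.4 CPM. The part of these other cells in the changes was not tested. In bulk RNA, fewer cells of a type and less RNA per cell cannot be told apart.

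The change was broad and went both ways. Of 13711 genes tested, 7336 were called at an adjusted p under 0.05, or 53.5%, of which 3776 (27.5%) were higher and 3560 (26%) lower at D2. At least 2-fold changes were called for 2351 genes upward (17.1%) and 2270 downward (16.6%). At least 4-fold changes numbered 813 upward and 842 downward, and at least 16-fold changes 121 and 135. The median log2 fold change over all tested genes was -0.07, and the median size regardless of sign was 0.74. D0 and D2 libraries did not overlap for 9389 genes, or 68.5% of those tested. All adjusted p-values are from edgeR's quasi-likelihood test with Benjamini-Hochberg adjustment over these genes, fold changes are D2 against D0 on the log2 scale with the standard error (SE), and CPM are scaled for library composition. With mice as replicates, the p-values rest on 2 D0 and 3 D2 mice and on a spread shared with the KO groups.

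**Figure D1:**
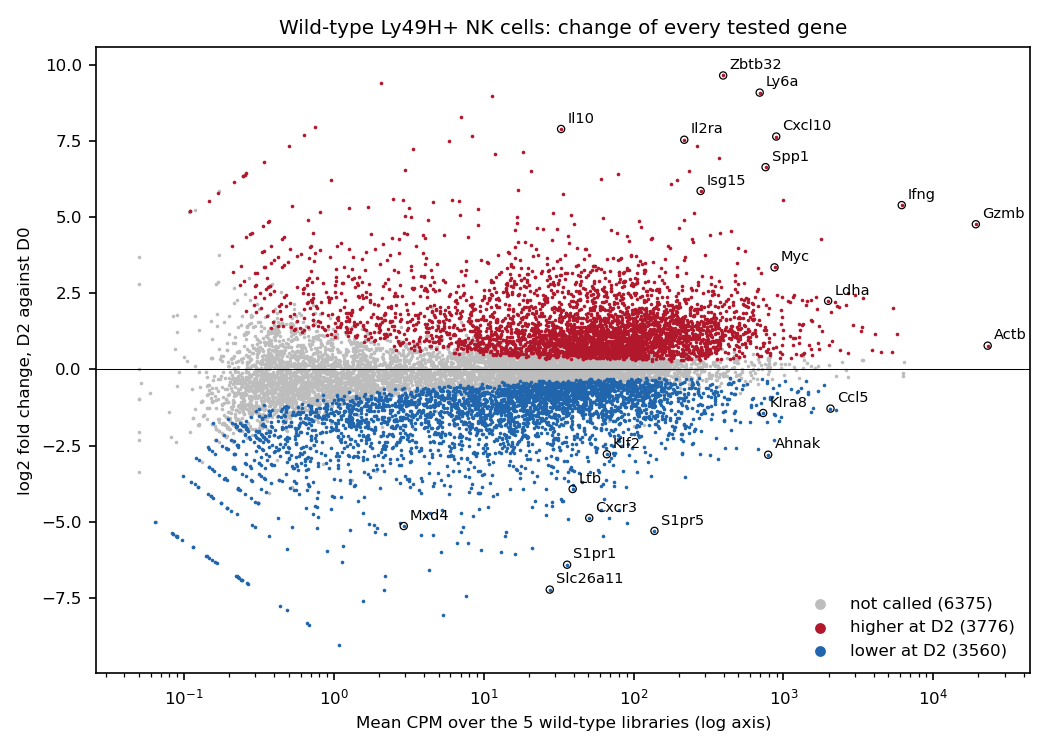
Each point is 1 of the 13711 tested genes, with its mean CPM over the 5 WT libraries on a log axis (means under 0.05 drawn at 0.05) and its log2 fold change of D2 against D0; red is called higher, blue called lower, grey not called. Named genes are circled, and rises and falls are similar in number (3776 and 3560).

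The 12 largest rises under the naming rule joined interferon-induced genes, secreted proteins and the IL-2 receptor. Zbtb32, a BTB zinc finger transcription factor induced in activated lymphocytes (chromosome 7, 30589680 to 30602819), had 0.614 and 1.01 CPM at D0 and 770.1, 645 and 563 CPM at D2 (log2 fold change 9.65 ± 0.32, adjusted p = 1.1e-09). It was low in both D0 libraries and high in all 3 D2 libraries. Ly6a, which encodes the surface protein Sca-1, had 3.04 and 1.20 CPM at D0 and 1720, 949 and 796 CPM at D2 (log2 fold change 9.09 ± 0.59, adjusted p = 9.93e-08). Il2ra, the alpha chain that gives the IL-2 receptor its high affinity, went from 2.17 and 1.71 CPM to 302.5, 518 and 265 CPM (log2 fold change 7.54 ± 0.47, adjusted p = 7e-08). All 3 genes were near absent at D0 and high in every D2 library. Cxcl10, a chemokine that draws CXCR3+ lymphocytes, had 10.5 and 4.33 CPM at D0 and 1445, 1616 and 1398 CPM at D2 (log2 fold change 7.65 ± 0.41, adjusted p = 3.14e-08). Spp1, which encodes osteopontin, had 10.5 and 14.7 CPM at D0 and 1566, 999 and 1208 CPM at D2 (log2 fold change 6.64 ± 0.29, adjusted p = 7.33e-09). Cxcl10 was even among the D2 libraries, while Spp1 ranged from 999 CPM in D2 replicate 2 to 1566 CPM in D2 replicate 1. Il10, an anti-inflammatory cytokine, was less even, with 0.323 and 0.127 CPM at D0 and 113, 27.3 and 23.6 CPM at D2 (log2 fold change 7.89 ± 1.09, adjusted p = 5.05e-05), and D2 replicate 1 stood well above the other D2 libraries. The interferon-inducible genes Ifi211 and Ifi204, of the HIN-200 family, and Ifi44 rose by 7.33, 6.94 and 6.53. Ifi204 and Ifi211 are related genes, between which reads may be split unevenly. The metabolic enzyme Bcat1, which transfers the amino group of branched-chain amino acids, had 0.129 and 0.158 CPM at D0 and 22, 20.2 and 17.4 CPM at D2 (log2 fold change 7.06 ± 0.43, adjusted p = 6.96e-08). Acod1, which makes itaconate, had only 4 counts over both D0 libraries and 18.9, 13.4 and 9.36 CPM at D2. AA467197, a small protein gene of little known function, had 0.259 and 0.158 CPM at D0 and 26.2, 45.6 and 19.0 CPM at D2 (log2 fold change 7.15 ± 0.61, adjusted p = 8.2e-07).

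The 12 largest falls included the egress receptor S1pr1. S1pr1 (chromosome 3, 115710433 to 115715055) encodes the receptor by which lymphocytes follow sphingosine 1-phosphate out of tissue, and it had 91.9 and 85.0 CPM at D0 and 1.34, 1.27 and 0.538 CPM at D2 (log2 fold change -6.41 ± 0.27, adjusted p = 5.72e-09). Every D2 library lay far under both D0 libraries. Slc26a11, an anion transporter, and Sgsh, a lysosomal sulfatase of heparan sulfate breakdown, lie next to each other on chromosome 11 (119355509 to 119381076 and 119343489 to 119355510). Slc26a11 had 67.1 and 69.5 CPM at D0 and 0.299, 0.543 and 0.497 CPM at D2 (log2 fold change -7.23 ± 0.22, adjusted p = 1.09e-09). Sgsh had 32.6 and 34.4 CPM at D0 and 0.896, 0.860 and 0.538 CPM at D2 (log2 fold change -5.46 ± 0.23, adjusted p = 6.46e-09). The neighbours thus fell together, Slc26a11 further than Sgsh. Mcam, the adhesion molecule CD146, had 138 and 166 CPM at D0 and 4.53, 2.44 and 3.44 CPM at D2 (log2 fold change -5.45 ± 0.24, adjusted p = 6.94e-09). Angpt1, a secreted ligand of the Tie2 receptor, had 23.7 and 22.7 CPM at D0 and 0.448, 0.543 and 0.166 CPM at D2 (log2 fold change -5.92 ± 0.36, adjusted p = 6.96e-08). G0s2, an inhibitor of the triglyceride lipase ATGL, went from 9.18 and 16.1 CPM to 0.0996, 0.272 and 0.207 CPM (log2 fold change -5.98 ± 0.60, adjusted p = 3.26e-06). In each of these the D2 libraries were low and far from the D0 pair. Clip4, a protein of the CAP-Gly linker family, had 20.9 and 17.2 CPM at D0 and 0.0498, 0.181 and 0.0828 CPM at D2, or 7 counts in all at D2 (log2 fold change -7.43 ± 0.45, adjusted p = 6.39e-08). The other 5 were Rhpn1 (-6.06), Tmem151a (-6.01), the copine Cpne7 (-5.87), the collagen chain Col8a2 (-5.70) and Mturn (-5.68).

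**Figure D2:**
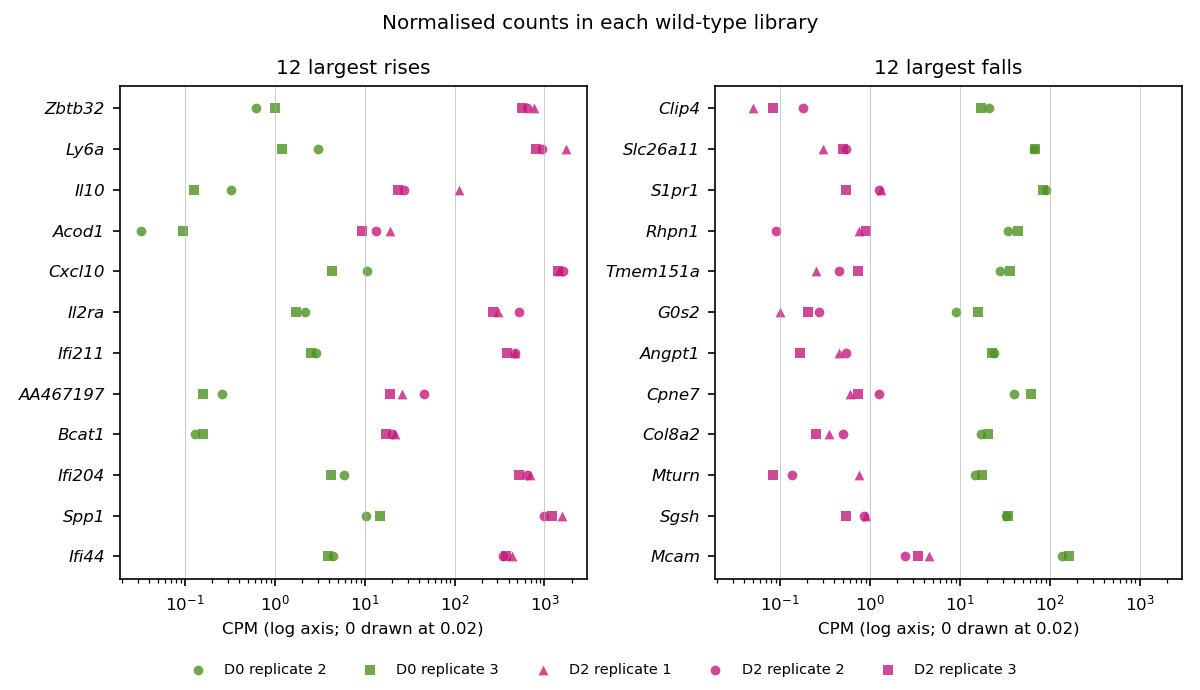
CPM (log axis) of the 12 largest rises, left, and the 12 largest falls, right, 1 point per WT library, green for D0 and pink for D2. Genes entered only if their D0 and D2 values did not overlap, which held for 68.5% of all tested genes. Il10 shows D2 replicate 1 (112.8 CPM) apart from the other D2 libraries (27.3 and 23.6 CPM).

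By change in mean CPM rather than fold, 8 genes led each way. CPM are scaled shares of a library, so they do not give amounts of RNA per cell. Gzmb, the protease granzyme B, had 1074 and 1220 CPM at D0 and 34870, 29630 and 29260 CPM at D2 (log2 fold change 4.77 ± 0.17, adjusted p = 1.58e-09), and went from 0.13% and 0.138% of a D0 library to between 2.55% and 3.00% of a D2 library. Ifng, the cytokine interferon gamma, had 283 and 197 CPM at D0 and 6482, 16660 and 7141 CPM at D2 (log2 fold change 5.40 ± 0.61, adjusted p = 8.95e-06). All D2 libraries were far above D0, and D2 replicate 2 was the highest of them by a wide margin. The cytoskeletal actins rose by less, Actb by 0.78 and Actg1 by 1.15. The chaperones Hspa8 and Hspa5 rose by 2.00 and 2.43, the transcription factor Irf8 by 2.35, and Serpinb9, the cell's own inhibitor of granzyme B, by 2.52. Downward, mean CPM fell most for Junb, a subunit of the AP-1 transcription factor (3892 and 3175 CPM at D0 and 1143, 1592 and 1472 CPM at D2). Next was the chemokine Ccl5 (3033 and 3338 CPM at D0 and 1397, 1278 and 1247 CPM at D2). Jak1, a kinase of cytokine receptors, fell by 1.39, the lysosomal protease Ctsd by 1.26, and Klrb1c, which encodes the sort antigen NK1.1, by 1.68. Larger ratios belonged to the giant scaffold protein Ahnak (-2.80), the GTPase-activating protein Arhgap45 (-2.33) and the calcium pump Atp2a3 (-2.60). The 10 most abundant genes took 6.31% and 6.78% of counts at D0 and 9.63% to 10.1% at D2.

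The interferon response genes of the list were higher throughout. All 48 passed the filter on low counts and all 48 were called higher, against 27.5% of all tested genes. Their median log2 fold change was 2.65 against -0.07. This list and those below were chosen with earlier results of these data known, so their counts are descriptions without a test. Of 10 tested Gbp genes, whether listed or not, 8 were called higher. For every list the background is 27.5% higher and 26% lower. Many interferon-induced genes carry in their promoters a short motif, the interferon-stimulated response element (ISRE). The letters GAAA, then any 2 bases, then GAAA, on either strand, occurred in the RefSeq promoter window (250 bases before to 50 after the start, GRCm38.p6) of 22 of the 37 list genes that had a window, or 59.5%. They occurred in 3.44% of all 32851 windows and in 3.89% of tested genes with a window. A gene can have more than 1 window, and it counts if any of them holds the motif. Such a match is a description and not a shown binding site. Bst2 and Isg15 carry the motif in overlapping copies and are shown with the 250 bases before the start and the matches in capitals. Bst2 is at chr8:71537473-71537722 and Isg15 at chr4:156200819-156201068, both on the minus strand of GRCm38.p6.
Bst2: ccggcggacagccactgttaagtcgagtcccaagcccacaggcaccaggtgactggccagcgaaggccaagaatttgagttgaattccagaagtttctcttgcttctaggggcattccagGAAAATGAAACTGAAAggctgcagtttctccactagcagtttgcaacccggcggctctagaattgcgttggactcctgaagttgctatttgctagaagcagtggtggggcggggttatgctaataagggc
Isg15: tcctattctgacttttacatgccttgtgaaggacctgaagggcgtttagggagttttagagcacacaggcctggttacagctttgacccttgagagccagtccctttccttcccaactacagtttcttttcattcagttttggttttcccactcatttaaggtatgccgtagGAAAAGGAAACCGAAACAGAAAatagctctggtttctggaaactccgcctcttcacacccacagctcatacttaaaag
The first match begins 130 bases before the start in Bst2 and 78 bases before it in Isg15, where 3 overlapping matches form 1 run. Bst2, which encodes tetherin, a surface protein that holds back budding virions, had 23.2 and 26.2 CPM at D0 and 531, 473 and 558 CPM at D2 (log2 fold change 4.40 ± 0.15, adjusted p = 1.58e-09). Isg15, a ubiquitin-like modifier chosen here after its values were seen, had 8.56 and 7.31 CPM at D0 and 533, 392 and 459.5 CPM at D2 (log2 fold change 5.86 ± 0.23, adjusted p = 3.01e-09). Usp18, the protease that removes ISG15 and damps the interferon receptor, had 33.3 and 35.1 CPM at D0 and 1754, 1507 and 1607 CPM at D2 (log2 fold change 5.57 ± 0.17, adjusted p = 1.09e-09). In all 3 genes the D2 libraries were close to each other and far above D0. Oasl1, which limits translation of Irf7 message, rose by 4.64, and among the others the antiviral GTPase Mx1 rose by 4.06, Rsad2, which encodes viperin, by 4.69, and the transcription factor Irf7 by 2.12. The smallest rise was that of Ifi27 at 0.54 (adjusted p = 0.014), which was not called without D0 replicate 2 (0.40) or without D2 replicate 3 (0.40).

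Cytokine receptors changed in both directions. Of 29 receptors, kinases, STAT factors and feedback inhibitors, 17 were higher (58.6%) and 8 lower (27.6%), with a median of 0.57. Among all tested genes 27.5% were higher and 26% lower. Among receptors, beside Il2ra, the IL-12 receptor chain Il12rb1 had 38.9 and 64.5 CPM at D0 and 374, 279.5 and 290.2 CPM at D2 (log2 fold change 2.60 ± 0.25, adjusted p = 2.4e-06) and its partner Il12rb2 rose by 1.47. Il21r rose by 1.66, Il15ra by 1.81 and the shared IL-2 and IL-15 receptor chain Il2rb by 0.57. The 2 chains of the IL-18 receptor went the other way. Il18rap had 1142 and 1020 CPM at D0 and 387, 401 and 407 CPM at D2 (log2 fold change -1.44 ± 0.11, adjusted p = 2.81e-07) and Il18r1 had 285 and 214 CPM at D0 and 65.7, 84.3 and 80.5 CPM at D2 (log2 fold change -1.70 ± 0.18, adjusted p = 5.12e-06). Ifngr1, a chain of the interferon gamma receptor, fell by 1.09 and Il7r, of the IL-7 receptor, by 1.80, the latter not called without D0 replicate 2 (-1.30). Among transducers, Stat2 and Stat3 rose by 1.49 and 2.27, while Stat4, which carries IL-12 signals, fell by 0.41 and Jak1 by 1.39. Of the feedback inhibitors, Cish rose by 3.35 and Socs3 by 1.61.

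Granule genes split by member. Of 22 in the list 19 passed the filter (Gzmd, Gzme and Gzmf did not), with a median of 0.30. Of those tested 9 were higher (47.4%) and 4 lower (21.1%), against 27.5% and 26% of all tested genes. Gzmb stood far ahead, and Gzmc, a further granzyme, had 1.75 and 1.58 CPM at D0 and 23.1, 25.7 and 21.4 CPM at D2 (log2 fold change 3.81 ± 0.25, adjusted p = 9.99e-08). Prf1, the pore-forming perforin, had 1633 and 1769 CPM at D0 and 4697, 4373 and 4363 CPM at D2 (log2 fold change 1.40 ± 0.13, adjusted p = 1.78e-06). Gzma had 4530 and 3727 CPM at D0 and 6889, 5553 and 5924 CPM at D2 (log2 fold change 0.57 ± 0.20, adjusted p = 0.0306), a small rise that was not called without D0 replicate 2 (0.65), D0 replicate 3 (0.38), D2 replicate 1 (0.43) or D2 replicate 3 (0.53), nor with a filter of 5 mean CPM (0.44). On a scale of CPM per kilobase of transcript, Gzma led Gzmb at D0 (4145 against 799) and Gzmb led Gzma at D2 (21770 against 6147). Serpinb6b, a granzyme-inhibiting serpin of a family with close copies, rose by 2.11, the granule proteoglycan Srgn by 1.53, and the death ligand Tnfsf10 (TRAIL) by 1.56. Lower members were the protease Ctsw, with 1308 and 1542 CPM at D0 and 456, 474 and 577 CPM at D2, and the granzyme Gzmm, with 15.8 and 15.4 CPM at D0 and 3.73, 5.84 and 8.62 CPM at D2; the log2 fold changes were -1.50 and -1.36. Nkg7, a granule membrane protein, was not called (log2 fold change 0.30, adjusted p = 0.0624), but was without D2 replicate 2 (0.37) and with the replicate block (0.27).

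Of 20 genes for secreted cytokines and chemokines 17 passed the filter, with 14 higher, 2 lower and a median of 2.87. Beside Ifng, Il10, Cxcl10 and Spp1, Lif, an IL-6 family cytokine, had 1.10 and 1.83 CPM at D0 and 26.9, 49.1 and 35.0 CPM at D2 (log2 fold change 4.65 ± 0.40, adjusted p = 8.9e-07). Xcl1, which attracts cross-presenting dendritic cells, had 140.2 and 102 CPM at D0 and 695, 1153 and 1436 CPM at D2 (log2 fold change 3.17 ± 0.33, adjusted p = 4.03e-06), with D2 replicate 1 the lowest of its group. Csf2 (GM-CSF) rose by 3.34, Csf1 by 2.87, Ccl3 and Ccl4 by 1.99 and 2.11, and Tnf by 1.13. Ccl1 rose by 7.25 but did not meet all conditions for the largest rises on mean level, counts and overlap. Tnf was not called without D0 replicate 3 (0.75). The 2 that fell were Ccl5 (log2 fold change -1.28 ± 0.15, adjusted p = 9.95e-06) and Ltb, the membrane partner of lymphotoxin alpha, with 81.1 and 97.4 CPM at D0 and 4.83, 5.93 and 6.83 CPM at D2 (log2 fold change -3.92 ± 0.23, adjusted p = 5.64e-08).

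**Figure D3:**
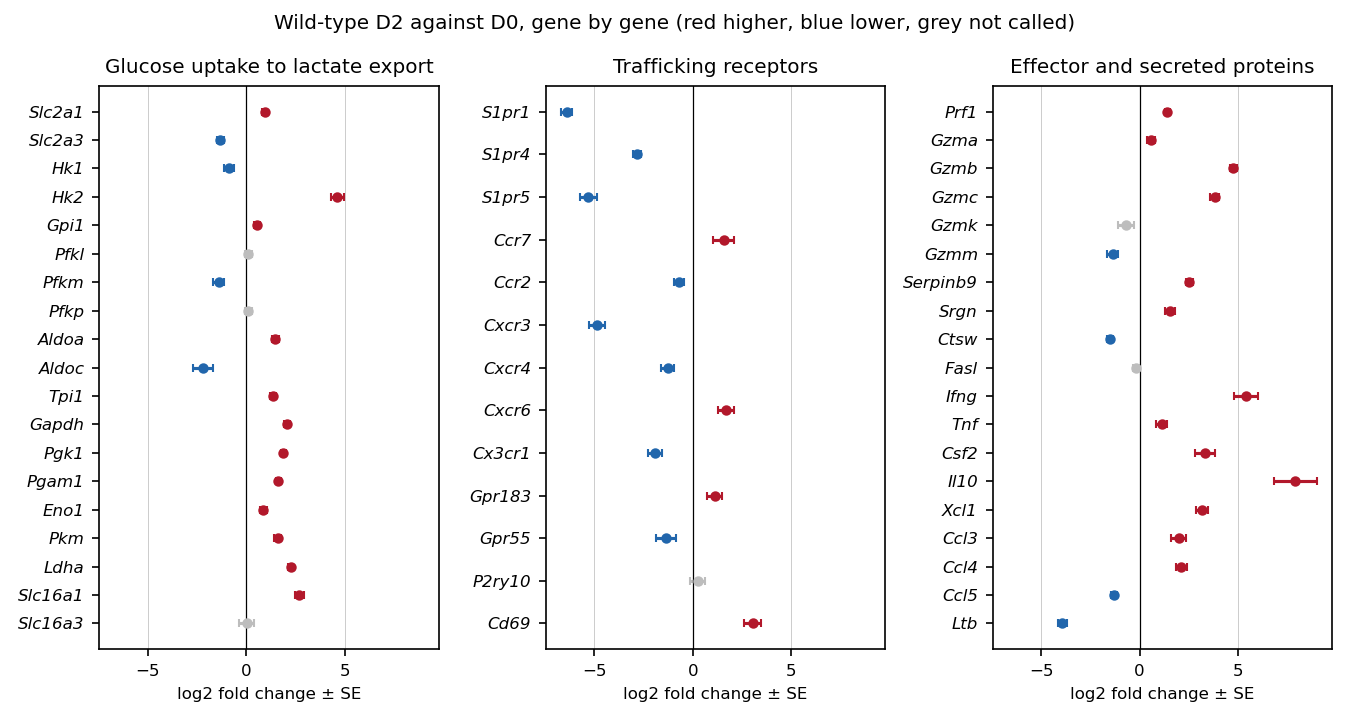
Log2 fold change of D2 against D0 with its SE for single genes of glucose use in pathway order, trafficking receptors, and effector and secreted proteins (red called higher, blue called lower, grey not called). Within each panel members go both ways, such as Hk2 (4.62) and Hk1 (-0.88), Cd69 (3.03) and S1pr1 (-6.41), or Gzmb (4.77) and Ltb (-3.92).

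Most NK receptors and adaptors that changed were lower. Of 36 members 4 were called higher and 18 lower, against 27.5% and 26% of all tested genes, with a median of -0.61. Genes of 3 sort antigens fell in message, although every library was gated on the protein. Klra8, which encodes Ly49H, had 1286 and 1064 CPM at D0 and 440, 419 and 449 CPM at D2 (log2 fold change -1.43 ± 0.31, adjusted p = 0.00169), Klrb1c (NK1.1) had 1650 and 1519 CPM at D0 and 563, 391 and 524 CPM at D2 (log2 fold change -1.68 ± 0.17, adjusted p = 4.14e-06), and Itga2, which encodes the DX5 antigen, was lower by 0.71. D0 and D2 did not overlap in these, as in 68.5% of all tested genes. Klra8 belongs to the Ly49 family, whose near-identical copies can share reads. Fcgr3, which encodes CD16, the receptor for antibody-coated cells, had 80.4 and 75.7 CPM at D0 and 5.58, 3.17 and 3.02 CPM at D2 (log2 fold change -4.32 ± 0.31, adjusted p = 2.12e-07). The activating receptor gene Klrc2 fell by 1.85, Klrk1 (NKG2D) by 0.71, Cd96 by 2.00 and Slamf6 by 1.83. Both adaptors of Ly49H fell, Tyrobp (DAP12) by 1.16 and Hcst (DAP10) by 1.66. Ncr1, which encodes NKp46, was not called (1408 and 1208 CPM at D0 and 1504, 1471 and 1595 CPM at D2, log2 fold change 0.22). The 4 that rose included Crtam, an adhesion receptor, with 71.9 and 59.0 CPM at D0 and 209.8, 400.5 and 361 CPM at D2 (log2 fold change 2.31 ± 0.28, adjusted p = 1.62e-05), Slamf7 (1.64) and Tigit, an inhibitory receptor (1.55).

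Transcription factors of the NK lineage were about even, with a median of 0.08. Of 28 tested members 10 were higher (35.7%) and 9 lower (32.1%). These shares are near the 27.5% and 26% of all tested genes, so nothing is read from them about the list. Beside Zbtb32 and Irf8, Irf4, induced by antigen receptor signals in lymphocytes, had 2.65 and 2.02 CPM at D0 and 67.4, 65 and 62.0 CPM at D2 (log2 fold change 4.79 ± 0.20, adjusted p = 5.72e-09), and Batf, its AP-1 partner, had 34.7 and 47.2 CPM at D0 and 124, 185 and 158 CPM at D2 (log2 fold change 1.92 ± 0.26, adjusted p = 4.08e-05). Prdm1 (Blimp-1) rose by 0.80, Nfil3 by 1.29 and Id2 by 0.51. Other members fell. Lef1 had 117 and 129 CPM at D0 and 22, 20.6 and 21.9 CPM at D2 (log2 fold change -2.51 ± 0.13, adjusted p = 1.95e-08), and its relative Tcf7 fell by 2.89. Bach2, a repressor that keeps lymphocytes undifferentiated, had 37.5 and 33.6 CPM at D0 and 7.77, 7.96 and 8.00 CPM at D2 (log2 fold change -2.17 ± 0.16, adjusted p = 2.81e-07), and Zeb2, a factor of mature NK cells, had 344 and 324 CPM at D0 and 112, 111 and 108 CPM at D2 (log2 fold change -1.60 ± 0.10, adjusted p = 7.12e-08). Rora fell by 2.12, Gata3 by 1.06 and Eomes by 0.94. Tbx21 (T-bet) was not called (log2 fold change -0.27, adjusted p = 0.649), and with 492 and 905 CPM at D0 and 290.2, 769 and 683 CPM at D2 its groups overlapped, D2 replicate 1 being the lowest library.

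Receptors of trafficking fell strongly or rose, by class. Of 15 tested members 5 were higher (33.3%) and 8 lower (53.3%), against 27.5% and 26% of all tested genes, with a median of -0.72. The counts were 2 higher without D0 replicate 3, 3 higher without D2 replicate 2 and 5 lower without D0 replicate 2. All 3 sphingosine 1-phosphate receptors of the list fell. Besides S1pr1, S1pr5, the receptor by which NK cells leave the marrow and lymph nodes, had 241 and 423 CPM at D0 and 7.32, 5.61 and 12.3 CPM at D2 (log2 fold change -5.30 ± 0.45, adjusted p = 8.2e-07), and S1pr4 had 67.0 and 91.5 CPM at D0 and 11.7, 9.50 and 12.4 CPM at D2 (log2 fold change -2.82 ± 0.21, adjusted p = 2.59e-07). Cd69, whose protein binds S1PR1 and removes it from the surface, had 80.1 and 44.3 CPM at D0 and 553, 515 and 459.5 CPM at D2 (log2 fold change 3.03 ± 0.41, adjusted p = 4.42e-05). The chemokine receptor Cxcr3, which binds CXCL10, had 105 and 136 CPM at D0 and 5.92, 1.63 and 4.76 CPM at D2 (log2 fold change -4.88 ± 0.39, adjusted p = 4.89e-07). Cx3cr1 fell by 1.94 and Cxcr4 by 1.28, whereas Gpr183 rose by 1.11. Cxcr4 was not called without D0 replicate 2 (-0.93), and Gpr183, at 1.80 without D0 replicate 2, was not without D0 replicate 3 (0.57), D2 replicate 2 (0.86) or D2 replicate 3 (1.08), nor with a filter of 5 mean CPM (0.97). Ccr7 and Cxcr6 were also called higher, from low levels. Ccr7 had 4.27 and 3.23 CPM at D0 and 4.78, 18.7 and 10.0 CPM at D2 (log2 fold change 1.58, adjusted p = 0.0234) and was not called without D0 replicate 2 (1.73), D0 replicate 3 (1.34) or D2 replicate 2 (0.99), nor with no filter on low counts (1.52). Cxcr6, at 1.68, was not called without D0 replicate 3 (1.13).

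Adhesion molecules were mostly lower, with 17 of 24 lower (70.8%), 3 higher (12.5%) and a median of -1.09. Among all tested genes 26% were lower and 27.5% higher. Falls included the integrin chains Itgam (CD11b, -2.58), Itgae (-2.66), Itga1 (-2.59), Itgax (-1.67) and Itgb1 (-1.24). Cd2, a receptor for CD48, had 453 and 514 CPM at D0 and 82.3, 87.0 and 99.3 CPM at D2 (log2 fold change -2.43 ± 0.13, adjusted p = 2.77e-08), and Selplg, the selectin ligand PSGL-1, had 1283 and 1529 CPM at D0 and 487, 504 and 523 CPM at D2 (log2 fold change -1.48 ± 0.13, adjusted p = 1.25e-06). The tetraspanin Cd9 fell by 1.73 and Cd27 by 0.57. The 3 that rose were Jaml, a junctional adhesion receptor, with 11.4 and 11.9 CPM at D0 and 438, 364 and 439.8 CPM at D2 (log2 fold change 5.15 ± 0.25, adjusted p = 1.22e-08), the integrin chain Itgb3 (2.50) and Icam1, a ligand of LFA-1 (1.47). Among TNF receptor family members and checkpoint receptors 9 of 17 were higher (52.9%) and 2 lower (11.8%), with a median of 0.75. Tnfrsf9, the costimulatory receptor 4-1BB, had 143 and 154 CPM at D0 and 2616, 3305 and 2748 CPM at D2 (log2 fold change 4.28 ± 0.18, adjusted p = 5.52e-09), and Havcr2, which encodes TIM-3, had 1.13 and 0.886 CPM at D0 and 75, 50.3 and 41.0 CPM at D2 (log2 fold change 5.77 ± 0.37, adjusted p = 9.96e-08). The inhibitory receptor genes Pdcd1 (PD-1), Ctla4 and Lag3 rose by 5.02, 4.76 and 2.90, from 0.159, 0.548 and 1.82 CPM on average at D0 to 5.33, 14.9 and 13.6 CPM at D2. The death receptor gene Fas rose by 2.45, and Tnfrsf26, a decoy receptor, fell by 3.09.

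Glycolysis was higher at most steps, with changes of isoform at some. Of 20 tested members 12 were higher (60%) and 4 lower (20%), against 27.5% and 26% of all tested genes, with a median of 0.91. Ldha (Entrez 16828, chromosome 7), which encodes the A subunit of lactate dehydrogenase, had 563 and 656 CPM at D0 and 3101, 2753 and 2856 CPM at D2 (log2 fold change 2.25 ± 0.13, adjusted p = 5.17e-08) in WT. It stood between 91.1 and 103.8 CPM in the KO D0 libraries and between 101.4 and 114.6 CPM in the KO D2 libraries, below every WT library. Ldhb, which encodes the other main subunit, was under the filter. For glucose uptake Slc2a1 (GLUT1) rose by 0.95 while Slc2a3 (GLUT3) had 142 and 198 CPM at D0 and 81.6, 60.5 and 64.3 CPM at D2 (log2 fold change -1.30 ± 0.19, adjusted p = 6.66e-05). For glucose phosphorylation Hk2 had 1.36 and 1.90 CPM at D0 and 36.4, 52.2 and 32.1 CPM at D2 (log2 fold change 4.62 ± 0.34, adjusted p = 2.45e-07) and Hk1 had 139 and 261 CPM at D0 and 127, 94.8 and 104 CPM at D2 (log2 fold change -0.88 ± 0.25, adjusted p = 0.0094). Hk1 was at -1.33 without D0 replicate 2 and not called without D0 replicate 3 (-0.41). On the CPM per kilobase scale Hk1 nonetheless led Hk2 on both days (46.8 against 0.295 at D0, 25.4 against 7.30 at D2), and Slc2a1 passed Slc2a3 (38.1 against 42.9 at D0, 73.5 against 17.4 at D2). In the lower pathway Gapdh had 761 and 786 CPM at D0 and 3573, 2935 and 3314 CPM at D2 (log2 fold change 2.08 ± 0.15, adjusted p = 1.76e-07) and Pgk1 had 121 and 122 CPM at D0 and 493, 403 and 439 CPM at D2 (log2 fold change 1.87 ± 0.12, adjusted p = 1.14e-07). Aldoa, Tpi1, Pgam1, Eno1 and Pkm rose by 1.48, 1.34, 1.63, 0.87 and 1.60. The lactate exporter Slc16a1 had 20.9 and 17.9 CPM at D0 and 107, 146 and 126 CPM at D2 (log2 fold change 2.70 ± 0.22, adjusted p = 6.23e-07). The phosphofructokinase isoform Pfkm and the aldolase isoform Aldoc fell by 1.39 and 2.18.

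Among regulators of metabolism 4 of 21 were higher (19%) and 8 lower (38.1%), against 27.5% and 26% of all tested genes, with a median of 0.05. Hif1a, the oxygen-sensing factor that drives glycolytic genes, had 74.0 and 68.2 CPM at D0 and 324, 759.5 and 405 CPM at D2 (log2 fold change 2.80 ± 0.35, adjusted p = 1.91e-05), with D2 replicate 2 the highest. Akt2 rose by 1.18. Ppargc1a, a coactivator of mitochondrial genes, had 6.46 and 6.11 CPM at D0 and 0.846, 1.2 and 2.73 CPM at D2 (log2 fold change -1.95 ± 0.35, adjusted p = 0.000462), the HIF target Bnip3 fell by 1.86, and Rptor, the defining subunit of mTORC1, by 1.24.

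Mitochondrial genes were also mostly higher, where 27.5% of all tested genes were higher and 26% lower. In the citric acid cycle 14 of 24 members were called higher, with a median of 0.52, and 9 were called without D0 replicate 2. Fh1 (fumarase) had 40.8 and 45.2 CPM at D0 and 127, 113 and 131 CPM at D2 (log2 fold change 1.52 ± 0.14, adjusted p = 1.21e-06), and Idh3a, Mdh2 and Sdhb rose by 1.46, 1.35 and 1.03. Of 46 nuclear-encoded respiratory chain subunits 45 were called higher, with a median of 0.98. Cycs, cytochrome c, rose by 2.53, Ndufab1 of complex I had 28.8 and 34.5 CPM at D0 and 104, 129 and 152 CPM at D2 (log2 fold change 2.02 ± 0.20, adjusted p = 3.1e-06), and Cox7a2 of complex IV and Atp5b and Atp5g3 of the ATP synthase rose by 1.61, 1.43 and 1.53.

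Most genes of cell growth rose. Myc, the transcription factor of growth programmes, had 134 and 133 CPM at D0 and 1237, 1580 and 1275 CPM at D2 (log2 fold change 3.35 ± 0.19, adjusted p = 4.15e-08). Its antagonists Mxd4 and Mxi1, which compete for the partner MAX, fell, Mxd4 with 5.46 and 8.61 CPM at D0 and 0.0996, 0.136 and 0.331 CPM at D2 (log2 fold change -5.14 ± 0.44, adjusted p = 8.78e-07) and Mxi1 by 1.47. Of 34 ribosome biogenesis and Myc genes 31 were higher, with a median of 1.91. Pa2g4 had 75.7 and 82.8 CPM at D0 and 498, 461 and 458 CPM at D2 (log2 fold change 2.57 ± 0.12, adjusted p = 1.12e-08), the nucleolar protein nucleolin (Ncl) rose by 2.29, nucleophosmin (Npm1) by 2.64 and the pseudouridine synthase Dkc1 by 2.2. Cytosolic ribosomal proteins were higher for 42 of 43, with a median of 1.21. Rpl5 rose by 1.72, while Rps27 was the 1 member that fell (154 and 165 CPM at D0 and 99.6, 111 and 114 CPM at D2, log2 fold change -0.56). Many of these genes have processed copies in the genome, so single values are less certain. Among translation factors and tRNA synthetases 25 of 26 were higher, with a median of 1.48, led in p by the helicase Eif4a1 (296 and 357 CPM at D0 and 1587, 1503 and 1583 CPM at D2, log2 fold change 2.25). Eprs rose by 1.77 and Eef1e1, a synthetase-complex protein, by 2.78.

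Supply pathways followed the same direction. Nucleotide synthesis was higher for 22 of 23 members, with a median of 2.19. Rrm2, the regulated subunit of ribonucleotide reductase, had 34.9 and 35.8 CPM at D0 and 562, 405 and 456 CPM at D2 (log2 fold change 3.75 ± 0.18, adjusted p = 1.21e-08), Ctps, which makes CTP, had 13.9 and 19.2 CPM at D0 and 180.2, 201 and 185 CPM at D2 (log2 fold change 3.51 ± 0.18, adjusted p = 1.96e-08), and Dut, which clears dUTP, had 18.9 and 17.8 CPM at D0 and 148, 159.9 and 182 CPM at D2 (log2 fold change 3.16 ± 0.18, adjusted p = 4.42e-08). Serine, one-carbon and polyamine genes were higher for 14 of 15, with a median of 1.89. Shmt1, which moves a carbon from serine to folate, had 5.88 and 6.04 CPM at D0 and 178, 166 and 184 CPM at D2 (log2 fold change 4.88 ± 0.20, adjusted p = 4.17e-09). Mthfd2, a mitochondrial enzyme of folate use, had 9.57 and 11 CPM at D0 and 129.5, 124 and 131 CPM at D2 (log2 fold change 3.64 ± 0.18, adjusted p = 1.29e-08). Psat1 and Phgdh of serine synthesis rose by 2.70 and 2.46, and Odc1 and Srm of polyamine synthesis by 2.50 and 3.59. Of 11 transporters of amino acids and iron 7 were higher, with a median of 0.88. The large neutral amino acid transporter Slc7a5 had 4.85 and 3.45 CPM at D0 and 29.9, 70.9 and 53 CPM at D2 (log2 fold change 3.63 ± 0.37, adjusted p = 3.97e-06), the arginine and lysine transporter Slc7a1 rose by 2.41, and Tfrc, the transferrin receptor, by 3.02. Targets of the stress factor ATF4 did not move together, with a median of 0.91. Of 10 tested 4 were higher (40%) and 3 lower (30%), against 27.5% and 26% of all tested genes. The count of lower members was 1 without D0 replicate 3, and that of higher members was 2 when any 1 D2 library was left out and when only WT libraries were fitted. Asns, asparagine synthetase, had 0.355 and 0.316 CPM at D0 and 12.1, 9.64 and 12.3 CPM at D2 (log2 fold change 5.06 ± 0.32, adjusted p = 9e-08), and Ddit3 (CHOP) had 25.2 and 31.0 CPM at D0 and 11.6, 10.4 and 11.4 CPM at D2 (log2 fold change -1.33 ± 0.17, adjusted p = 2.14e-05). Atf4 itself was called at 0.36 but not without D0 replicate 3 (0.15), nor without any 1 of the D2 libraries (0.28 to 0.39), with no filter (0.30), with a filter of 5 mean CPM (0.23), with only WT libraries (0.29) or with the GC offset (0.33).

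Proteasome subunits were higher for 31 of 32, with a median of 1.32, among them Psme2 of the interferon-induced activator (1.88) and the core subunit Psma5 (1.78). Protein folding genes were higher for 23 of 28, with a median of 2.15. Calr, an endoplasmic reticulum chaperone, had 325 and 312 CPM at D0 and 2016, 1560 and 1646 CPM at D2 (log2 fold change 2.45 ± 0.14, adjusted p = 4.36e-08), and Manf, Pdia6, Hyou1 and mitochondrial Hspe1 rose by 2.76, 2.57, 3.10 and 3.06. The chaperonin subunit Tcp1 rose by 2.16. Sterol and fatty acid genes were mixed, with 12 of 28 higher (42.9%), 3 lower (10.7%) and a median of 0.38. Among all tested genes 27.5% were higher and 26% lower. Without D2 replicate 1, 5 members were lower. Idi1 and Cyp51 of the sterol pathway rose by 2.43 and 1.83, and fatty acid synthase (Fasn) by 1.39. Scd2, a fatty acid desaturase, had 134 and 142 CPM at D0 and 9.61, 8.82 and 10.3 CPM at D2 (log2 fold change -3.84 ± 0.14, adjusted p = 1.58e-09), and the cholesterol exporters Abcg1 and Abca1 fell, by 3.38 and 1.17. Abca1 was not called without D0 replicate 2 (-0.87).

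Most cell cycle genes rose, from G1 to mitosis. Of 21 genes of G1 and the E2F factors 14 were higher and 2 lower (median 1.48), of 35 DNA replication genes 34 were higher (median 2.39), and of 33 mitosis genes 31 were higher and 1 lower (median 2.84). The E2F factors switch on replication genes, and many mitotic genes carry a cell cycle homology region (CHR) near the start, bound by the DREAM and MuvB complexes. Among replication genes with a window, TTTCCCGC, an E2F form, occurred in 6 of 29 (20.7%). It occurred in 1.07% of all windows and in 2.32% of tested genes with a window. A different E2F form, TTTGGCGC, also occurred in 6 of 29 (20.7%), against 0.514% and 1.11%. Among mitosis genes TTTGAA, the core of the CHR, occurred in 19 of 27 (70.4%), against 17.9% and 15.3%. Of its 25 matches 21 lay within 100 bases of the start. Both strands were searched, none of these 3 motifs contains another, and a match is only a description. Windows of Cdc6 for E2F and of Cdk1 and Ube2c for the CHR are shown, with the 250 bases before the start and matches in capitals. Cdc6 is at chr11:98907901-98908150 on the plus strand, Cdk1 at chr10:69352913-69353162 on the minus strand and Ube2c at chr2:164769679-164769928 on the plus strand of GRCm38.p6.
Cdc6: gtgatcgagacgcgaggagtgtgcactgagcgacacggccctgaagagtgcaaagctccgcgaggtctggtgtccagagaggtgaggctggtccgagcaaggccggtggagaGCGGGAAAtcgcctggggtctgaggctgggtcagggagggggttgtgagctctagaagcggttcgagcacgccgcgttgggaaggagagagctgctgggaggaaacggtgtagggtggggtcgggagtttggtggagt
Cdk1: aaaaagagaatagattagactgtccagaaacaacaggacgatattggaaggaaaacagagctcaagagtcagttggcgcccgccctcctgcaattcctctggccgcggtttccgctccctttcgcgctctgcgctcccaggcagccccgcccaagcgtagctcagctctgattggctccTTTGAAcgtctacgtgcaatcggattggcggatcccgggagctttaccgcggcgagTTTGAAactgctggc
Ube2c: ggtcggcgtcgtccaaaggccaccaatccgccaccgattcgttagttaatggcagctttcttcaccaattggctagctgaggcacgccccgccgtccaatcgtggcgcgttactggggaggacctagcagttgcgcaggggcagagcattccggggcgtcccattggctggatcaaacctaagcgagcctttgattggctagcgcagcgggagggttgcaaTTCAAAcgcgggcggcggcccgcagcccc
The match in Cdc6 begins 138 bases before the start and reads on the opposite strand, as does the match in Ube2c, 29 bases before the start. In Cdk1 matches begin 71 and 15 bases before the start. Cdc6, which loads the MCM helicase at origins, had 8.14 and 6.01 CPM at D0 and 174, 123 and 141 CPM at D2 (log2 fold change 4.37 ± 0.23, adjusted p = 2.34e-08). Mcm10, which activates that helicase, had 5.20 and 5.95 CPM at D0 and 154, 113 and 107 CPM at D2 (log2 fold change 4.48 ± 0.21, adjusted p = 1.21e-08), and the origin protein Orc1 rose by 4.62, Cdc45 by 3.73, Gins2 by 3.67, Mcm2 by 2.65 and the sliding clamp Pcna by 2.24. Cdk1, the kinase of mitotic entry, had 14.4 and 16.7 CPM at D0 and 204, 133 and 169 CPM at D2 (log2 fold change 3.43 ± 0.20, adjusted p = 4.67e-08). Ube2c, of the anaphase-promoting complex pathway, had 18.7 and 20.1 CPM at D0 and 228, 149 and 181 CPM at D2 (log2 fold change 3.26 ± 0.20, adjusted p = 6.96e-08), and Top2a, which untangles chromosomes, had 75.2 and 61.7 CPM at D0 and 975, 638 and 697 CPM at D2 (log2 fold change 3.49 ± 0.21, adjusted p = 6.39e-08). In Cdk1, Ube2c and Top2a D2 replicate 1 was the highest and replicate 2 the lowest of the D2 libraries. Mki67, Ccnb1 and Bub1 rose by 2.89, 3.25 and 3.65, and Ccna2 by 2.98. The phosphatase gene Cdc25b fell, by 0.57. In G1, Ccne2 (cyclin E2) rose by 3.76, Ccnd2 by 1.48, and the E2F repressor E2f8 and the activator E2f3 by 3.32 and 2.75.

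The inhibitors of cyclin-dependent kinases parted. Cdkn1b (p27), which holds resting lymphocytes in G1, had 48.5 and 46.2 CPM at D0 and 9.41, 6.70 and 6.54 CPM at D2 (log2 fold change -2.65 ± 0.19, adjusted p = 1.82e-07), while Cdkn1a (p21) had 19.4 and 9.93 CPM at D0 and 129, 152 and 120 CPM at D2 (log2 fold change 3.19 ± 0.27, adjusted p = 8.42e-07), and Cdkn2d fell by 1.28. On the CPM per kilobase scale Cdkn1b stood above Cdkn1a at D0 (10.4 against 7.06) and far below it at D2 (1.66 against 64.2). Genes of quiescence and negative growth control were lower for 22 of 30, with 2 higher and a median of -1.47. Pik3ip1, an inhibitor of PI3 kinase, fell by 4.51, Foxo3 by 3.54 and the antiproliferative genes Tob1 and Btg2 by 2.45 and 2.03. Klf2, the Krüppel-like factor that drives S1pr1 in lymphocytes, had 138 and 134 CPM at D0 and 15.0, 21.8 and 22.4 CPM at D2 (log2 fold change -2.78 ± 0.17, adjusted p = 6.99e-08), and Klf3 had 88.9 and 73.9 CPM at D0 and 5.23, 6.97 and 6.96 CPM at D2 (log2 fold change -3.67 ± 0.22, adjusted p = 5.64e-08). Txnip, which holds down glucose uptake, had 569 and 766 CPM at D0 and 92.2, 98.9 and 97.1 CPM at D2 (log2 fold change -2.80 ± 0.16, adjusted p = 4.36e-08), and the mTORC1 inhibitor Sesn1 had 122 and 147 CPM at D0 and 12.8, 17.9 and 15.7 CPM at D2 (log2 fold change -3.12 ± 0.16, adjusted p = 2.1e-08). The 2 higher members were Slfn2 (1.13), also an interferon-induced gene, and the adaptor Fyb (0.75). CCCCACCC, a form bound by Krüppel-like factors, occurred in 24.1% of the 29 genes of this list that had a window. It occurred in 9.99% of all windows and in 13.7% of tested genes with a window. CACGTG is the E-box that MYC binds. In the Myc and ribosome biogenesis list it occurred in 21.4% of the 28 genes with a window, against 7.15% and 11.3%.

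Survival and early-response genes moved member by member, and 27.5% of all tested genes were higher and 26% lower, against 31.2% and 25% of the BCL2 family, 17.6% and 29.4% of p53 targets and 28.6% and 33.3% of immediate early genes, so nothing is read from these counts about the lists. Of 16 tested BCL2 family genes 5 were higher and 4 lower (median 0.17), with 3 higher without D0 replicate 3. The survival gene Bcl2a1d had 2.91 and 2.72 CPM at D0 and 52.5, 62.7 and 60.4 CPM at D2 (log2 fold change 4.38 ± 0.21, adjusted p = 1.21e-08) and its near-identical copy Bcl2a1b rose by 3.22, with reads between them uncertain. Bcl2 had 403 and 497 CPM at D0 and 205, 309 and 281 CPM at D2 (log2 fold change -0.76 ± 0.19, adjusted p = 0.0048). Of the pro-death members Bcl2l11 (BIM) rose by 1.01, while Bbc3 (PUMA) fell by 1.89 and Bmf by 2.85. Of 17 p53 targets 3 were higher and 5 lower (median -0.15), or 5 higher with the replicate block and GC offset, a list that includes Cdkn1a and Fas among the rises and Trp53inp1 (-3.34) and Gadd45a (-1.45) among the falls. Of 21 immediate early genes 6 were higher and 7 lower (median 0.27). Ier2 had 1406 and 1274 CPM at D0 and 273, 471 and 461 CPM at D2 (log2 fold change -1.74 ± 0.25, adjusted p = 6.22e-05), Zfp36, which destabilises cytokine messages, had 1062 and 552 CPM at D0 and 233, 209 and 166 CPM at D2 (log2 fold change -1.99 ± 0.30, adjusted p = 0.000117), and Fos and Jun both fell by 1.15. Fos was not called without D0 replicate 2 (-0.83), nor Jun without D0 replicate 2 (-1.28), D0 replicate 3 (-1.12), D2 replicate 1 (-0.84) or D2 replicate 3 (-1.16), with DESeq2 (-1.16) or with no filter (-1.21). Nr4a3, induced by receptor signals, had 22.1 and 9.43 CPM at D0 and 65.7, 99.1 and 92.1 CPM at D2 (log2 fold change 2.44 ± 0.35, adjusted p = 7.69e-05), Ier3 rose by 3.77 and the NF-κB subunit Rel by 1.70. Antigen presentation genes were higher for 7 of 16 (43.8%) and lower for 2 (12.5%), with a median of 0.16. B2m rose by 1.15, Tapbp by 1.31, Erap1 by 1.41 and H2-T23, which encodes Qa-1, by 1.31. Cd1d1, which presents lipids to NKT cells, had 59.2 and 59.9 CPM at D0 and 3.44, 3.35 and 5.01 CPM at D2 (log2 fold change -3.91 ± 0.23, adjusted p = 5.11e-08).

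**Figure D4:**
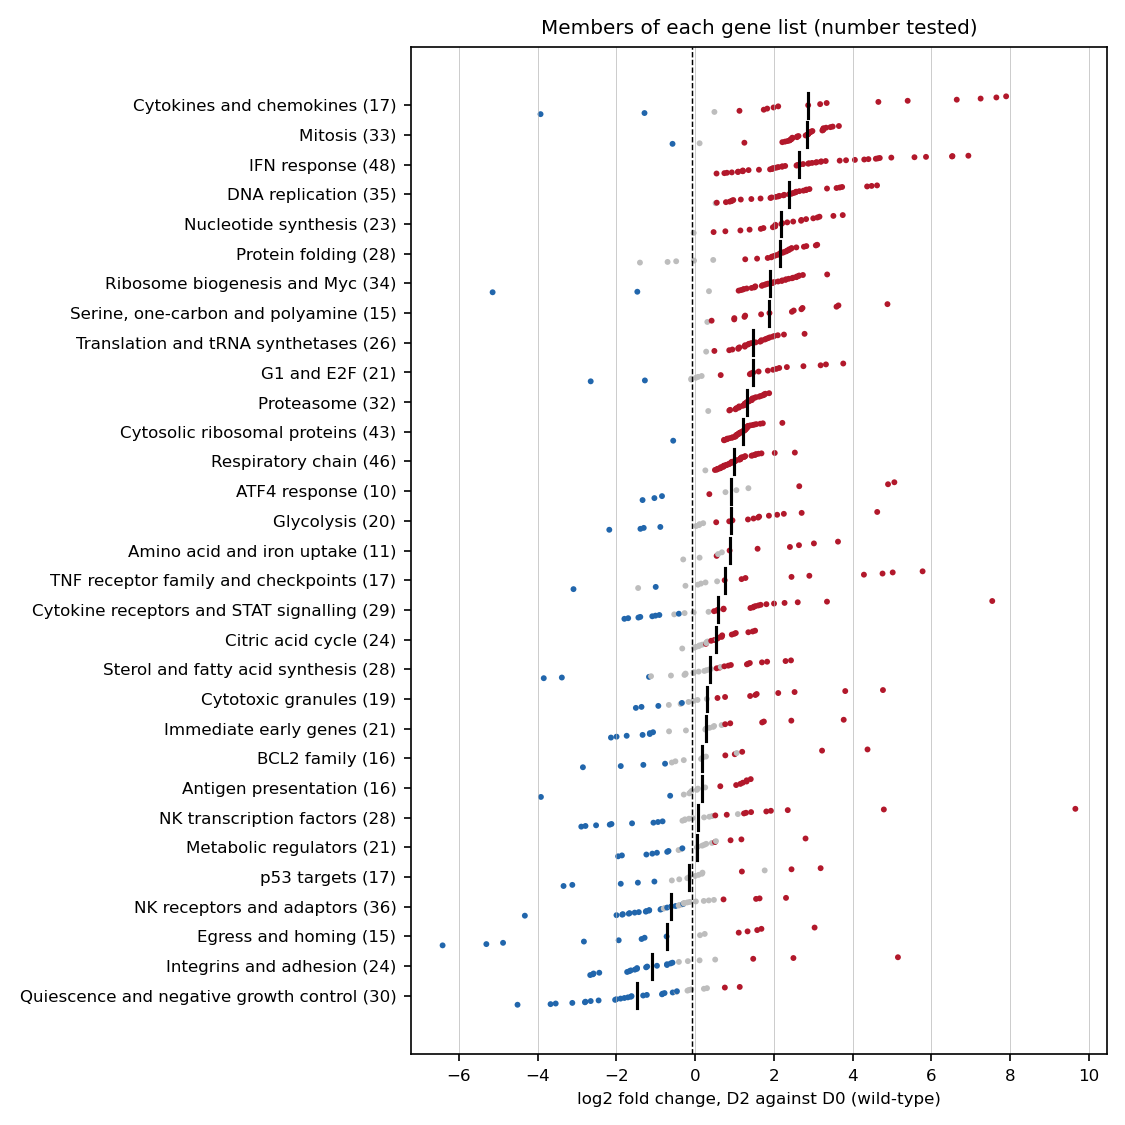
Log2 fold change of D2 against D0 for every tested member of the 31 lists, ordered by list median (black bar), with the number tested in brackets; red is called higher, blue called lower, grey not called, and the dashed line is the median of all tested genes (-0.07). List medians run from -1.47 for quiescence and negative growth control to 2.87 for cytokines and chemokines.

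The direction of change was largely shared with the KO cells, whose D2 and D0 libraries are separate from those of WT, though they may share hosts. In KO cells 8422 genes were called between the title days (61.4%). Of the genes called higher in WT 3123 were called higher in KO, or 82.7% of the WT and 84.5% of the KO list, and of those called lower 3089, or 86.8% and 65.4%. Another 109 were called in opposite directions. The difference of the change between genotypes was called for 801 genes (5.84%), higher in WT for 784 (5.72%) and lower for 17 (0.124%), and these counts depended on single libraries. Without WT D0 replicate 2 they were 4 and 0 (1667 and 534 at an unadjusted p under 0.05), without D0 replicate 3 186 and 4, without D2 replicate 1 1404 and 32, without D2 replicate 2 279 and 6, and without D2 replicate 3 113 and 4. With the trend on transcript GC content removed they were 112 and 13. With the replicate number as a block they were 1719 and 139, and with day and number together as the block, added after seeing the data, 1997 and 619. GC content moved with the change in KO more than in WT: in genes whose GC-richest 200 bases held 75 to 80% GC the median log2 fold change was -0.94 in KO and -0.16 in WT, against -0.42 and -0.14 in genes at 80% or more and 0.26 and 0.05 in genes under 55%. Its part in the genotype difference was not tested beyond removing that trend. The difference for Ldha (2.11 ± 0.17, adjusted p = 0.000222) was called under each of the 14 alternatives run, at 1.99 to 2.31.

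**Figure D5:**
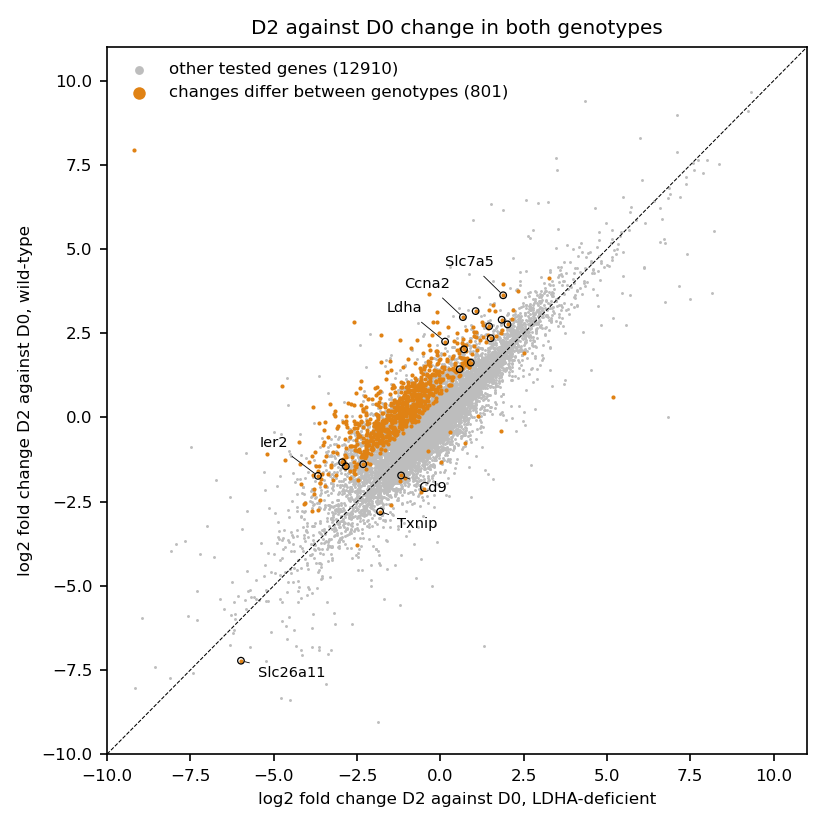
Log2 fold change of D2 against D0 in KO (horizontal) and WT cells (vertical) for all tested genes, with the dashed line marking equal change; orange marks the 801 genes whose change differed between genotypes, and circles mark 18 named ones. Most points lie along the line, and the orange points lie mostly above it.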

How the data were processed

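RNA was measured by low-input RNA-seq (SMART-seq V4) in 11 libraries of sorted Ly49H+ NK cells, of which the 5 WT ones are described here. The authors deposited 1 table of whole-number counts with 24421 Entrez genes in its lines. Tools named in the submitters' processing notes are DESeq2 1.22.2, Salmon 0.13.1, also written 13.1, Trimmomatic 0.36 and bcl2fastq 2.20.0.422, and the build is mm10. Each tool's role is not given in the sources used here, so the counts may be rounded estimates, and reads of near-identical genes may be split unevenly. A RefSeq table (GRCm38.p6) gave symbols for 24387 IDs, and the other 34 kept their IDs. Promoter sequences are from RefSeq on that build.

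The quasi-likelihood test of edgeR 4.0.16 (R 4.3.3) was applied to these counts, with TMM scaling, filterByExpr and the robust option. All 11 libraries entered 1 fit of 4 group means without covariates, leaving 7 residual degrees of freedom. The contrasts were D2 against D0 in WT and its difference from the KO change, with Benjamini-Hochberg adjustment over the 13711 genes kept. A gene was called at an adjusted p under 0.05. SE were derived from the F statistic. Floors use library totals and cover counting error only. The steps were tested on simulated data. They recovered 43 of 94 genes changed by 1 in log2 units and 80 of 99 changed by 2, and called 3 of 13172 unchanged genes. Far fewer genes changed there than were called here, so scaling under a change this broad was not tested.

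The alternatives were RLE scaling, DESeq2 1.42.0, no filter, a filter of 5 mean CPM, only the WT libraries, a replicate block, an offset for transcript GC content, block and offset together, and each WT library left out. For the difference from KO, blocks of day and replicate number were added after seeing the data. The members and lists were chosen with earlier results of these data known. The naming rule took the 12 largest rises and falls among called genes averaging 5 CPM or more, no overlap between the groups, more than 3 counts in each group and a symbol that is not provisional. It further took the 8 largest changes in CPM each way, Ldha, at most 4 called members of a list each way, by p, and the top marker by level for every marker list. Some of the 209 genes taken are not named, and a few results are not reported here. Genes named outside the rule were chosen after their values were seen.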

Additional observations from a re-analysis of the deposited data

Results flagged for a closer look

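The change from D0 to D2 differed between WT and KO libraries for 18 named genes, by an edgeR test of the difference itself, but only Ldha and Dut kept the call under every alternative run. Without WT D0 replicate 2, 16 of the 18 lost it (Ccna2 had an adjusted p of 0.0841 and Slc7a5 of 0.129 in edgeR); 13 lost it without D0 replicate 3, 1 without D2 replicate 1, 9 without D2 replicate 2 and 14 without D2 replicate 3. The values are the WT change minus the KO change in log2 units, with adjusted p from edgeR. The change was higher in WT for Ccna2 (2.30 ± 0.39 SE, adjusted p = 0.0098), Ldha (2.11 ± 0.17, adjusted p = 0.00022), Dut (2.10 ± 0.22, adjusted p = 0.0027), Ier2 (1.94 ± 0.34, adjusted p = 0.012) and Slc7a5 (1.74 ± 0.44, adjusted p = 0.039). It was also higher for Junb by 1.61, Gadd45a by 1.38, Ndufab1 by 1.31, Slc16a1 by 1.24, Lag3 by 1.06, Jak1 by 0.92, Atp5b by 0.85, Irf8 by 0.84, Manf by 0.75 and Pgam1 by 0.71. It was lower in WT for Cd9 (-0.55), Txnip (-0.99) and Slc26a11 (-1.24). Ier2, Junb, Gadd45a and Jak1 fell in both genotypes, and less in WT, so their positive difference is a smaller fall.

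With an offset for transcript GC content, 5 of the 18 differences passed the threshold: Ccna2 (1.63), Ldha (2.21), Dut (1.55), Ier2 (1.41) and Manf (0.76). With the day and replicate number together as a block, an alternative added after seeing the data, all 18 passed, and with the GC offset added to it 4 did not: Jak1 (0.20), Lag3 (0.35), Cd9 (-0.36) and Ndufab1 (0.52). The highest GC content within any 200-base stretch of the transcript was 60.5% for Ldha, 78% for Ccna2 and 79.5% for Slc7a5. Its part in the differences was not tested beyond that offset.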

How the results depend on the processing

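The counts for D2 against D0 in WT stayed within 1.5 times of the reported ones under all 13 alternatives, at 2933 to 4111 genes higher and 3043 to 3913 lower. Of 254 named and called genes 241 kept their direction and call throughout, and the exceptions stand beside the genes in the report. Of the 62 counts over gene lists 52 stayed within 1.5 times. Tbx21, which was not called, changed sign to 0.0195 with the replicate block and 0.0921 with block and GC offset, and ran from -0.7004 without D0 replicate 2 to 0.1948 without D0 replicate 3, with 0.0041 without D2 replicate 1.

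The counts of genes whose change differed from KO moved, and the cause was not tested. Against 784 higher there were 475 with RLE scaling, 1719 with the replicate block, 112 with the GC offset and 4 to 1404 with 1 WT library left out. Against 17 lower there were 90 with DESeq2, 139 with the replicate block, 363 with block and GC offset, and 0 to 32 in edgeR with 1 WT library left out; the 0, without D0 replicate 2, had 534 at an unadjusted p under 0.05. With a block of day and replicate number, added after seeing the data, 1997 were higher and 619 lower, and 1244 and 870 with the GC offset. Across days, deviations of the WT libraries from their group means correlated at 0.0084 and 0.16 for the same number and at -0.16 to 0.11 for different ones. With 2 WT D0 libraries, the deviations of 1 mirror those of the other, so these values cannot decide whether numbers were paired. Between genotypes, libraries sharing a number had deviations correlated by 0.22, 0.20 and 0.11 on D2, against -0.19 to 0.0051 for different numbers. D0 pairs gave 0.028 and 0.41, but WT D0 replicate 2 reached 0.38 with KO D0 replicate 1, a different number. The mirrored WT D0 deviations cannot decide pairing here either. Whether numbers were paired was therefore not settled, and the block of day and number was kept as an alternative.

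With 2 D0 libraries, leaving 1 out leaves a lone library that is assumed to vary like the other groups.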

Other observations

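Gene families that had no list of their own, grouped by the stem of the symbol after the values were seen, showed further one-sided changes. Klf genes, the Krüppel-like transcription factors, were lower for 9 of 13 tested members, with a median log2 fold change of -1.63. Atg genes of autophagy were lower for 11 of 17 (median -0.57), Fbxl genes, substrate receptors of ubiquitin ligases, for 10 of 16 (-0.74), and Exoc genes of the exocyst, which tethers secretory vesicles, for 6 of 10 (-0.53). The large Zfp group of zinc finger genes had 125 of 347 lower and 27 higher (-0.42). In the other direction, Nup genes of the nuclear pore were higher for 17 of 20 (median 1.47). Mitochondrial ribosomal proteins were higher for 42 of 49 Mrpl genes (0.93) and 24 of 29 Mrps genes (0.93), and Timm genes of the mitochondrial inner membrane import machinery for 12 of 15. Exosc genes of the RNA exosome were higher for 9 of 10, and Utp genes of the small-subunit processome for 10 of 11. Over all tested genes 27.5% were higher and 26% lower. These families were chosen for their pattern, so their counts are descriptions without a test.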
